A study of Mus musculus with 16 samples.

Results

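The E proteins are the basic helix-loop-helix (bHLH) transcription factors encoded in the mouse by Tcf4, Tcf12 and Tcf3. They were taken as all rows of the isoform table that carry 1 of these 3 gene names. This gave 65 of 80137 transcripts, 42 of Tcf4, 11 of Tcf12 and 12 of Tcf3, and 3 of 18287 gene names. Every row with these names has an Ensembl identifier. RNA of the hippocampus of C57BL/6 wild type mice aged 3 months was sequenced in 16 mice, 4 per group, with both hippocampi of a mouse pooled. Homecage (HC) mice were neither shocked nor tested. Control mice (Ctrl) received 0 inescapable shocks and 30 escape trials with shocks of 0.4 mA. NLH mice (non-learned helpless) and LH mice (learned helpless) received 180 inescapable shocks of 0.4 mA and the same 30 trials, and the study told them apart by their escape behavior, so NLH and LH are outcomes and not treatments. Tissue was taken 3 h after the test. Ctrl mice had also been put in the shuttle box without shocks a day before the test, and HC mice were not handled. Ctrl vs. HC therefore covers handling, the box and the escape test, which cannot be told apart here. NLH vs. Ctrl and LH vs. Ctrl set mice with inescapable shocks, sorted by their outcome, against mice without them. LH vs. NLH asks about the outcome after the same inescapable shocks. In the test an escape ended the shock, so mice that failed more also received more shock there. The outcome and the shock received in the test cannot be told apart here.

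E proteins form dimers with each other or with tissue-specific bHLH factors such as the NeuroD proteins, and the dimers bind the E-box motif CANNTG. The Id proteins, which have the helix-loop-helix but lack the basic region that touches DNA, bind E proteins and keep them off the E-box. Tcf4 (E2-2) is the E protein that persists most in the adult forebrain. Loss of 1 copy of the human gene causes Pitt-Hopkins syndrome, with severe intellectual disability. Tcf12 (HEB) and Tcf3 (E2A) are best known from lymphocyte and neural progenitor development. The names are historical: the T cell factor of Wnt signaling that is often called TCF4 is Tcf7l2, an HMG-box protein of another family. Tcf4 was among the genes that the study chose on these mice for real time PCR, so its values here are not an independent choice.

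In GENCODE vM21, an annotation of the mm10 genome (GRCm38), Tcf12 lies at chr9:71842688-72111871 and Tcf3 at chr10:80409514-80433647, both on the minus strand. The annotation holds 64 of the 65 isoforms. The Tcf4 transcript ENSMUST00000201045.3 was not matched by identifier and version and was left without a structure. The genes differ in how their isoforms are built. Tcf3 has a pair of mutually exclusive exons for the bHLH region. E12 reads the exon at chr10:80412827-80413062 (236 bases, minus strand) and E47 the exon at chr10:80410398-80410624 (227 bases, minus strand), and the E47 protein binds DNA as a homodimer more readily than E12. The exons are shown because all E12 and E47 shares below rest on telling them apart. Capitals mark bases that differ or have no partner in the alignment of the pair. Of 227 aligned bases, 175 (77.1%) are identical.
E12 exon of Tcf3: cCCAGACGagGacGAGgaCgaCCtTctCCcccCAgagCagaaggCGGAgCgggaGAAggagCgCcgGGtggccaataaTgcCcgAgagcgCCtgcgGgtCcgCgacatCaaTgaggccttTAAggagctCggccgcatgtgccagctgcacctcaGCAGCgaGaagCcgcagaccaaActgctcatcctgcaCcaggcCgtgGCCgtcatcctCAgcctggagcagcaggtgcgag
E47 exon of Tcf3: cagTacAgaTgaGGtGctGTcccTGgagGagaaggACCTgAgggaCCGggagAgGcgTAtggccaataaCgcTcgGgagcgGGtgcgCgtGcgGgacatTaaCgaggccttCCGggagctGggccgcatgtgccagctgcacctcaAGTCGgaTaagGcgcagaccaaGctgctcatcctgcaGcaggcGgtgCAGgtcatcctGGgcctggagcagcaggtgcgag

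Tcf12 has a coding exon of 72 bases, often called ankyrin-like, at chr9:71868999-71869070 (minus strand), that is included or skipped and adds 24 residues. It is shown because it alone separates the exon-included from the exon-skipped Tcf12 isoforms.
Ankyrin-like exon of Tcf12: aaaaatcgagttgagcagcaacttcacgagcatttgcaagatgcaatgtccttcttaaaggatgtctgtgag

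Tcf4 spans 346 kb on chromosome 18. It has a splice donor before its bHLH exons that adds 12 bases, or 4 residues, in 8 isoforms and is not used in 8 others. It also has 10 clusters of annotated starts that hold isoforms of the table. The late starts give proteins without the first activation domain.

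The values are FPKM, fragments of a library scaled to transcript length and sequencing depth, as the authors computed them. They are per length, so levels of different genes can be set side by side. Summed FPKM was 120208 to 158004 per mouse, and depth, estimated from the steps of the low values on an assumed fragment length of 200 bases, was 20200000 to 47490000 fragments. On that estimate the isoforms of Tcf4 took 3216 to 9858 fragments of a mouse, those of Tcf12 487 to 1660 and those of Tcf3 59.1 to 264, so Tcf3 is the least precisely measured. In LH replicates 3 and 4 many more transcripts stood near 0 than in the other mice. An FPKM under 0.001 was found for 32 and 38 of the 65 isoforms in these mice, against 16 to 24 in each of the other 14, and for 36.7% and 44.8% of all transcripts, against 23.7% to 29.7%. The main LH differences are therefore also given without them. Neuron markers of the hippocampus were present in every mouse: Snap25, Syt1, Rbfox3, Camk2a and Slc17a7 summed to 685 to 964 FPKM. The lowest value was that of LH replicate 4, which was the lowest of all 16 mice in 10 of the 14 marker lists. These include the CA1 markers (Wfs1, Fibcd1 and Mpped1, 21.0 FPKM against 28.4 to 51.7 in the other 15 mice), the oligodendrocyte markers (250.0 FPKM against 304 to 482) and those of astrocytes and microglia. It also had the highest endothelial markers, at 11.8 FPKM against 2.63 to 5.91 in the other 15 mice, and all 4 NLH mice (4.80 to 5.61) were above the Ctrl mice (4.49 at most). At the other end, LH replicate 2 was the highest of all 16 mice in 11 of the 14 marker lists. It also had the highest summed FPKM (158004) and the highest estimated depth (47490000 fragments). Differences given without LH replicates 3 and 4 keep LH replicate 2 and so rest in part on it. The part of the markers and of depth in the results below was not tested. Of the marker genes of the other cell types examined, Cldn5, Dcx and Sox11 are not in the table under these names. In whole tissue, fewer cells of a type and less RNA per cell cannot be told apart.

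The E proteins are expressed at 3 distinct levels. Tcf4 had a mean summed FPKM of 69.8 over the 16 mice (56.9 to 79.4), above 99.1% of the gene names. Tcf12 had 8.35 (5.91 to 10.5), above 83.3%, and Tcf3 1.93 (1.00 to 2.77), above 53.2%. The 3 ranges do not overlap, so every mouse had the order Tcf4, Tcf12, Tcf3. Another 15 assembled transcripts without a gene name lie in the Tcf4 locus and were not members. They summed to means of 24.3 to 25.5 FPKM per group, 25.8% to 26.9% of the locus.

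The groups overlapped for Tcf4. HC mice had 67.0, 70.9, 65.6 and 62.0 FPKM, Ctrl mice 77.9, 65.2, 79.4 and 65.2, NLH mice 56.9, 78.4, 72.6 and 76.1, and LH mice 71.9, 73.3, 65.4 and 68.7. The widest spread is within NLH. Limma, fitted to log2(FPKM + 0.1) of all gene names with 1 mean per group, gave differences of 0.11 (SE 0.11) for Ctrl vs. HC, -0.02 for NLH vs. Ctrl, -0.04 for LH vs. Ctrl and -0.01 for LH vs. NLH on the log2 scale, with adjusted p from 0.932 to 1. The 95% interval, from the SE and a normal distribution, ran from 0.844 to 1.12 times for LH vs. Ctrl, and from 0.857 to 1.14 times for LH vs. NLH. It is narrower than the moderated t of limma would give. With isoforms of at least 1000 bases alone, NLH vs. Ctrl and LH vs. Ctrl turned positive, as given in the last section.

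Tcf12 gave the only separation of groups among the gene sums. HC mice had 8.54, 7.63, 8.41 and 7.68 FPKM, Ctrl mice 7.57, 7.92, 7.13 and 8.52, NLH mice 9.24, 9.89, 10.0 and 9.08, and LH mice 10.5, 9.35, 5.91 and 6.22. All 4 NLH mice lay above all 8 HC and Ctrl mice, while the LH mice split into 2 above 9 FPKM and 2, replicates 3 and 4, below every other mouse. NLH vs. Ctrl was 0.29 on the log2 scale (SE 0.15, adjusted p = 0.917 by limma), and the exact permutation test gave p = 0.0286, the smallest possible with 4 mice against 4. Over all gene names, 6.12% were likewise without overlap in NLH vs. Ctrl, where none of the 3 gene sums separated in Ctrl vs. HC (5.31%), LH vs. Ctrl (5.69%) or LH vs. NLH (2.14%). LH vs. Ctrl was -0.0033 with all mice and 0.35 (SE 0.10, adjusted p = 0.0520 by limma) without LH replicates 3 and 4, which are also the mice with many transcripts near 0. Without them 5.41% of all gene names passed after adjustment for LH against Ctrl and 0.0383% for LH against NLH, and none of the 3 gene sums did. LH vs. NLH was -0.30 (SE 0.15, adjusted p = 0.683 by limma) with them and 0.05 without them.

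Tcf3 was low and varied within groups. HC mice had 2.15, 2.71, 1.72 and 1.88 FPKM, Ctrl mice 1.40, 1.74, 1.99 and 2.77, NLH mice 1.74, 2.20, 1.89 and 2.12, and LH mice 1.70, 2.502, 1.36 and 1.00. The groups overlap, and LH replicate 4 was the lowest mouse. LH vs. Ctrl was -0.28 on the log2 scale (SE 0.25, adjusted p = 0.697 by limma), with an interval made as for Tcf4 from 0.588 to 1.15 times. LH vs. NLH was -0.33 (SE 0.25, adjusted p = 0.773 by limma). Without LH replicates 3 and 4 both turned positive, at 0.10 and 0.06. None of the 12 limma tests of the 3 gene sums reached an unadjusted p of 0.05. Among all gene names that share was 2.7% in Ctrl vs. HC, 5.59% in NLH vs. Ctrl, 11.5% for LH against Ctrl and 7.54% for LH against NLH, and after adjustment 0%, 0.00547%, 0% and 0.0109% passed.

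**Figure D1:**
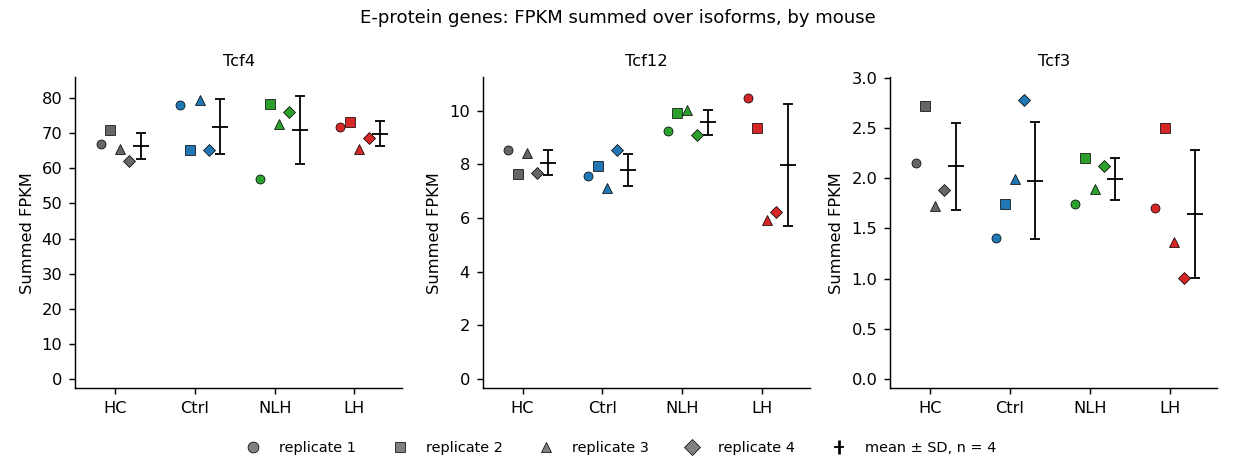
Summed FPKM of Tcf4, Tcf12 and Tcf3 (vertical axes, each with its own scale) in the 4 mice of each group, with the group mean and SD (n = 4). The 4 NLH mice sit above all HC and Ctrl mice in the Tcf12 panel, where LH spans 5.91 to 10.5 FPKM.

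Most of summed Tcf4 came from a few of its isoforms. Of the 65 isoforms, 51 had a mean FPKM of at least 0.1, 16 of at least 1, and 13 were above 0.001 FPKM in all 16 mice. A share of at least 5% of the gene was reached by 4 Tcf4 isoforms (63.8% of the gene together), 8 Tcf12 isoforms (91.6%) and 7 Tcf3 isoforms (92.3%). In Tcf4 the largest value was that of Tcf4-259 (ENSMUST00000203002.3), an incomplete coding transcript of 482 bases from the earliest starts, with a mean of 21.8 FPKM and 31.1% of the sum. Tcf4-202 (ENSMUST00000078486.12, 7147 bases) and Tcf4-207 (ENSMUST00000114985.9, 8577 bases), which both hold a complete long frame of 2010 bases, followed with 11.8 FPKM (17.1%) and 5.46 FPKM (7.91%). Tcf4-225 (ENSMUST00000201091.3, 959 bases, incomplete) had 5.34 FPKM (7.69%). Isoforms with a long complete frame, at least 90% of the longest coding sequence of the gene, took 28.4% of summed Tcf4, 36.9% of Tcf12 and 80.4% of Tcf3.

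Over the 4 groups together, Tcf4-207 had the smallest p of the 65 isoforms (adjusted p = 0.118 by limma). HC mice had 5.48, 6.09, 5.34 and 4.49 FPKM, Ctrl mice 3.86, 4.39, 3.43 and 4.197, NLH mice 5.84, 5.95, 6.69 and 5.55, and LH mice 7.47, 5.67, 7.203 and 5.78. The 4 Ctrl mice were the lowest of all 16, and HC, NLH and LH overlap. LH vs. Ctrl was 0.70 on the log2 scale (SE 0.13, adjusted p = 0.0715 by limma over all transcripts), NLH vs. Ctrl 0.59 (SE 0.13, adjusted p = 0.305) and Ctrl vs. HC -0.42 (SE 0.13, adjusted p = 1), while LH vs. NLH was 0.11 (SE 0.13, adjusted p = 0.793). NLH vs. Ctrl and LH vs. Ctrl share the Ctrl mice, which were also the low group in Ctrl vs. HC. Without LH replicates 3 and 4, LH vs. Ctrl was 0.70 (SE 0.14, adjusted p = 0.0564 by limma). The adjusted p of LH vs. Ctrl ran from 0.0258 to 0.219 over 17 alternatives and was under 0.05 in 3 of them: with size factors, when only transcripts averaging 1 FPKM or more were tested, and without LH replicate 2. The methods' test for 2 samples called Tcf4-207 in Ctrl vs. HC and in NLH vs. Ctrl, so the study's rule, which drops such transcripts from the LH comparisons, leaves it out there.

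The other large isoforms of Tcf4 overlapped between the groups in the 4 comparisons made. Tcf4-202 had group means of 9.90 ± 0.738 in HC, 10.9 ± 1.27 in Ctrl, 12.7 ± 2.93 in NLH, with 13.7 ± 2.97 FPKM in LH (SD, n = 4), and its highest values, 15.8 and 16.1, were in an NLH and an LH mouse. Tcf4-259 had 23.6 ± 4.34, 24.4 ± 6.13, 19.4 ± 5.25 and 19.7 ± 3.81. Tcf4-225 had 4.15 ± 1.13, 5.34 ± 0.363, 5.69 ± 0.783 and 6.18 ± 0.682, with a difference of 0.40 for Ctrl vs. HC (SE 0.17, adjusted p = 1 by limma). No comparison of these 3 isoforms passed after adjustment.

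Tcf4-221 (ENSMUST00000200966.3, 731 bases, incomplete) had low values in LH. HC mice had 2.98, 1.16, 1.57 and 2.59 FPKM, Ctrl mice 2.80, 4.41, 2.45 and 2.37, NLH mice 0.141, 4.35, 1.17 and 2.24, and LH mice under 0.001, 1.08, 0.0394 and 0.229. LH and Ctrl do not overlap, while NLH replicate 1 lies among the LH mice. LH vs. Ctrl was -3.47 on the log2 scale (SE 0.81, adjusted p = 0.150 by limma), and -3.13 (adjusted p = 0.188) without LH replicates 3 and 4. Without LH replicate 2, the highest LH mouse, the adjusted p was 0.0331. Tcf4-252 (ENSMUST00000202477.3, 1873 bases, a short complete frame from a late start) was lowest in HC and LH. HC mice had 0.0996, 0.0923, 0.315 and 0.210 FPKM, Ctrl mice 1.10, 0.608, 1.44 and 0.695, NLH mice 0.707, 1.21, 0.845 and 1.38, and LH mice 0.553, 0.360, 0.501 and under 0.001. Ctrl and NLH lie above HC and LH without overlap. Ctrl vs. HC was 1.93 (SE 0.52, adjusted p = 1 by limma), LH vs. Ctrl -1.46 (SE 0.52, adjusted p = 0.344) and LH vs. NLH -1.59 (SE 0.52, adjusted p = 0.423). Without LH replicates 3 and 4 the last 2 were -0.88 (SE 0.40, adjusted p = 0.349 by limma) and -1.01 (adjusted p = 0.385). Tcf4-230 (ENSMUST00000201205.3), at a mean of 0.131 FPKM, was called by the methods' test in LH vs. NLH, with 0.187 ± 0.0855 FPKM in NLH, with 0.0306 ± 0.0613 in LH (SD, n = 4).

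**Figure D2:**
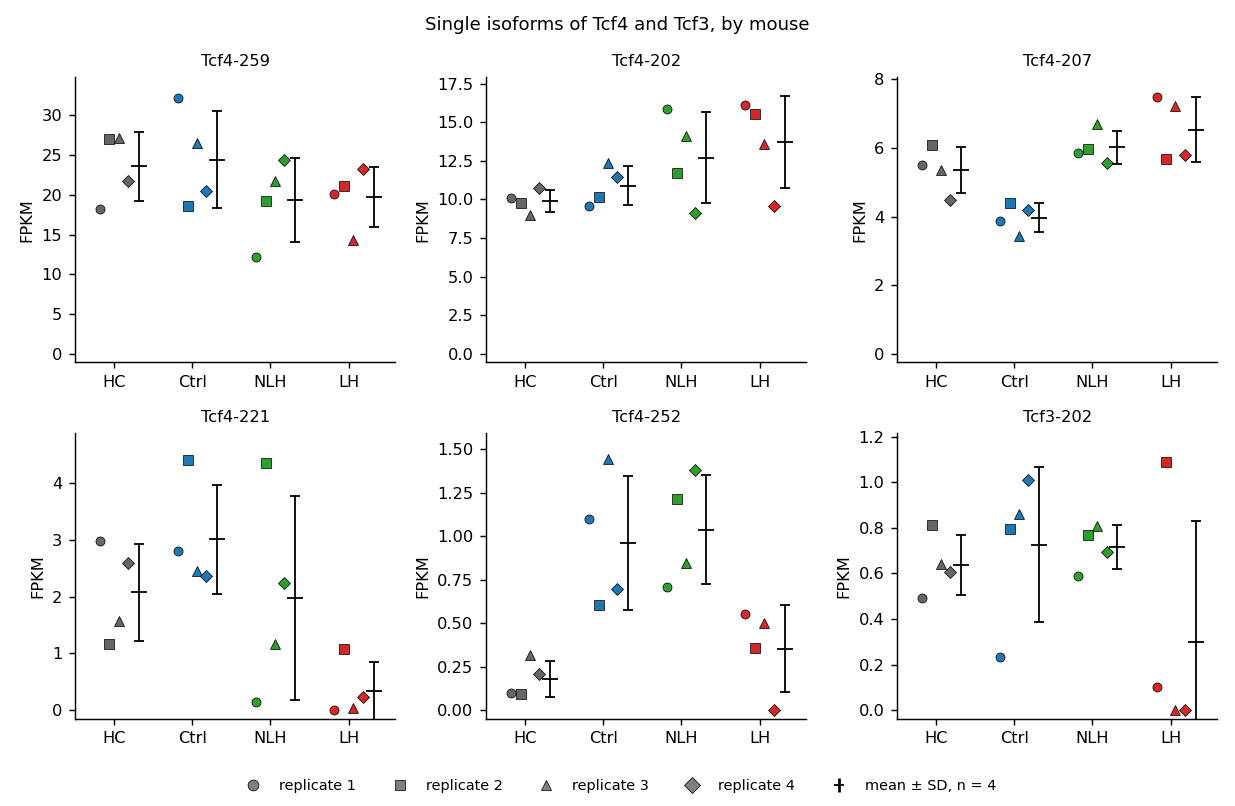
FPKM (vertical axes, each with its own scale) of 5 Tcf4 isoforms and of Tcf3-202 in the 4 mice of each group, with mean and SD (n = 4). The Ctrl mice are the lowest of all mice for Tcf4-207, at 3.43 to 4.39 FPKM, and LH and Ctrl do not overlap for Tcf4-221 and Tcf4-252.

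In Tcf12, 4 isoforms were near 1.2 to 1.4 FPKM. They were Tcf12-221 and Tcf12-201, which skip the 72-base exon and each hold a frame of 2046 bases, and the intron-retaining Tcf12-217 and Tcf12-212. Tcf12-217 (ENSMUST00000184770.7) was the steadiest, with group means of 1.61 ± 0.172 in HC, 1.37 ± 0.241 in Ctrl, 1.25 ± 0.179 in NLH, with 1.49 ± 0.148 FPKM in LH (SD, n = 4). Tcf12-221 (ENSMUST00000185117.7) ran from under 0.001 in LH replicate 3 to 3.27 FPKM in NLH replicate 3, and Tcf12-201 (ENSMUST00000034755.12) from 0.0248 in HC replicate 1 to 2.70 in LH replicate 3. NLH replicate 1, the lowest NLH mouse for Tcf12-221 at 0.00121, was the highest for Tcf12-201 at 2.49. Tcf12-216 (ENSMUST00000184523.7, with the 72-base exon) was higher in all 4 NLH mice (0.947 to 1.40) than in the 4 Ctrl mice (0.688 to 0.9002), and its adjusted p was 1 by limma. Tcf12-211 (ENSMUST00000184107.7), annotated as a target of nonsense-mediated decay, had 1.14 ± 0.463 FPKM in NLH, 0.308 ± 0.252 in Ctrl and 0.265 ± 0.246 in HC. In LH it was at 1.86 in replicate 1 and under 0.001 in the other 3 mice. Tcf12-202 and Tcf12-209 had means of 0.453 and 0.521 FPKM and overlapped between the groups.

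In Tcf3, no isoform reached a mean of 1 FPKM or was above 0.001 FPKM in all mice. Tcf3-202 (ENSMUST00000020379.12), the main E47 form, had 0.491, 0.813, 0.639 and 0.605 FPKM in the HC mice. Ctrl mice had 0.233, 0.795, 0.863 and 1.01, NLH mice 0.587, 0.770, 0.808 and 0.695, and LH mice 0.103, 1.09, under 0.001 and under 0.001. LH holds both the highest value and the lowest 3, so the groups overlap. LH vs. Ctrl was -1.76 on the log2 scale (SE 0.63, adjusted p = 0.349 by limma) and LH vs. NLH -1.87 (SE 0.63, adjusted p = 0.431). Without LH replicates 3 and 4 they were -0.61 and -0.72, with adjusted p of 0.721 and 0.725. Without LH replicate 2 alone they were -2.57 and -2.68, with adjusted p of 0.0188 and 0.0173. The other E47 form named here, Tcf3-207, had a mean of 0.281 FPKM, and the E12 forms Tcf3-201, Tcf3-210 and Tcf3-206 had 0.205, 0.204 and 0.123. Tcf3-201 was at 0.264 ± 0.312 in HC, 0.296 ± 0.285 in Ctrl, 0.254 ± 0.229 in NLH, with 0.00495 ± 0.00989 FPKM in LH (SD, n = 4). The noncoding Tcf3-212, which holds the E12 exon, and Tcf3-211 had means of 0.210 and 0.174 FPKM, and the fragment Tcf3-213 of 430 bases was above 0.1 FPKM in 1 mouse.

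Counted over the 65 isoforms, no limma test passed after adjustment in any comparison, where of all transcripts 0.00374% passed in Ctrl vs. HC, 0.0125% in NLH vs. Ctrl, 0.0462% in LH vs. Ctrl, with 0.0412% in LH vs. NLH. At an unadjusted limma p under 0.05, 4 isoforms of the 65 were found in Ctrl vs. HC, 2 higher and 2 lower in Ctrl, with 3.45% of all transcripts past the same limit (1.9% higher and 1.55% lower). In NLH vs. Ctrl 4 were found, all higher in NLH, against 5.12% of all transcripts (3.01% higher and 2.1% lower). In LH vs. Ctrl 7 were found, 2 higher and 5 lower in LH, against 10.7% (4.16% higher and 6.54% lower). The comparison of LH vs. NLH gave 9, all lower in LH, against 8.72% of all transcripts (2.98% higher and 5.74% lower), and 5 without LH replicates 3 and 4 (11.1% of all transcripts). The isoforms found were all of Tcf4 apart from Tcf3-202, in both LH comparisons, and Tcf12-211, in the last of the 4 comparisons.

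**Figure D3:**
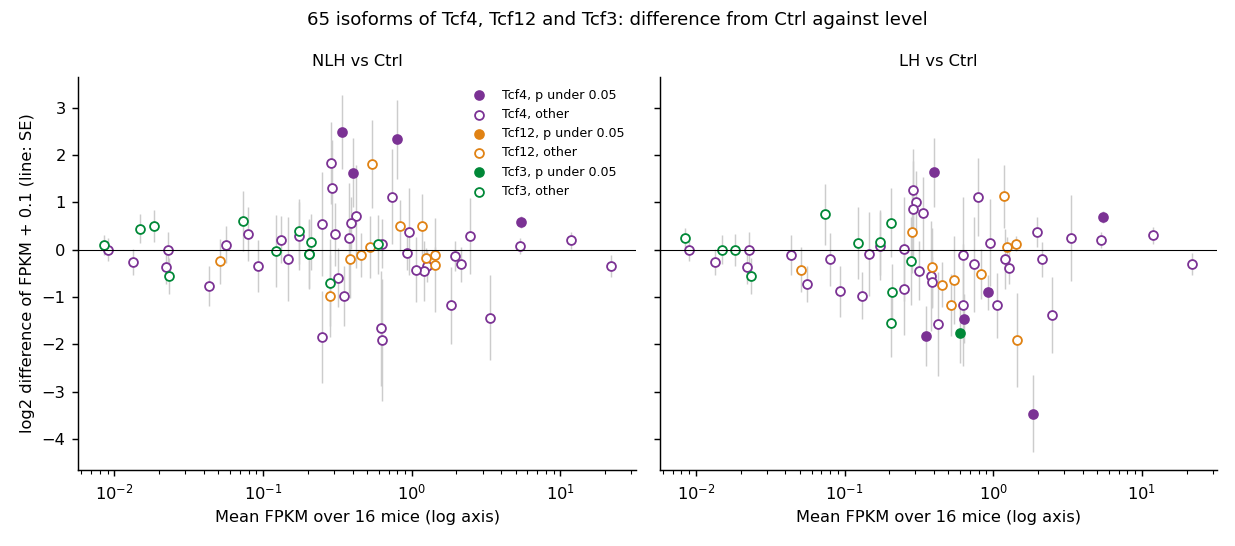
Difference on the log2(FPKM + 0.1) scale (vertical axis, with SE) of the 65 isoforms in NLH vs. Ctrl and LH vs. Ctrl, against their mean FPKM over 16 mice (horizontal log axis). Filled points have an unadjusted limma p under 0.05; all 4 in NLH vs. Ctrl are above 0, while 5 of the 7 in LH vs. Ctrl are below 0.

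The methods' test for 2 samples, on FPKM without adjustment, called 3 isoforms in Ctrl vs. HC (6.68% of all transcripts were called), 6 in NLH vs. Ctrl (7.2%), 4 in LH vs. Ctrl (7.69%), with 2 in LH vs. NLH (4.47%). After the study's exclusion, 2 were left in LH vs. Ctrl (6.15% of all transcripts), with 1 left in LH vs. NLH (3.95%). Those in LH vs. Ctrl were Tcf4-221 and Tcf4-201, a long isoform at a mean of 0.0563 FPKM, and that in LH vs. NLH was Tcf4-230. The 4 mice of the groups did not overlap for 3 isoforms in Ctrl vs. HC (4.52% of all transcripts), 6 in NLH vs. Ctrl (5.07%), 4 in LH vs. Ctrl (5.93%), with 1 in LH vs. NLH (3.22%). Some of these separations rest on values under 0.001 FPKM in both groups, and such separations do not show a difference of expression. The log2 ratio of an isoform to the rest of its gene had an unadjusted limma p under 0.05 for 2 isoforms in Ctrl vs. HC (3.33% of all ratios), 5 in NLH vs. Ctrl (4.89%), 6 in LH vs. Ctrl (10.5%), with 8 in LH vs. NLH (9.36%). None passed after adjustment, where 0.00369%, 0.0111%, 0.0351% and 0.0461% of all ratios did in the same order. The ratio of Tcf4-207 to the other Tcf4 isoforms was higher by 0.80 on the log2 scale in LH than in Ctrl (SE 0.29, adjusted p = 0.380 by limma). For Tcf4-221 the difference was -3.49 (SE 0.80, adjusted p = 0.163 by limma).

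Isoforms were also grouped by structure. Start clusters chain annotated starts within 1 kb of each other. The earliest cluster of Tcf4 took 47.9% ± 6.72 of its FPKM in HC, 42.9% ± 4.52 in Ctrl, 38.6% ± 4.67 in NLH, with 41.1% ± 4.10 in LH (SD, n = 4). The next, 2.4 kb on, took 24.3% ± 2.18, 25.7% ± 3.94, 30.7% ± 9.94 and 27.9% ± 2.55. A cluster 176 kb on took 9.62% ± 2.87, 12.4% ± 1.87, 9.09% ± 5.74 and 9.36% ± 4.54, and one 250 kb on took 7.12% ± 1.51, 9.43% ± 2.15, 10.4% ± 0.989 and 11.3% ± 2.11. No other cluster exceeded a mean of 5% over the 16 mice. The groups overlap in each of these 4 clusters in the comparisons made.

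Over 25 classes in 4 comparisons, 3 of 100 exact permutation tests reached p = 0.0286, the smallest possible, and none passed after adjustment over the 100 (smallest adjusted p = 0.659). In Tcf12, the latest cluster, which holds Tcf12-217, took 23.9%, 24.6%, 21.2% and 31.8% in the HC mice. The Ctrl mice had 21.3%, 22.5%, 25.5% and 23.0%, the NLH mice 20.4%, 14.7%, 14.8% and 13.8%, and the LH mice 22.8%, 22.2%, 25.4% and 27.0%. All 4 NLH mice were lower than the Ctrl mice and the LH mice, which gave 2 of the 3 tests. The Tcf12 sum was higher in all 4 NLH mice than in the Ctrl mice, and the FPKM of Tcf12-217 itself overlapped between these groups. NLH and LH overlapped in the Tcf12 sum, where LH replicates 1 and 2 had 10.5 and 9.35 FPKM. In Tcf3, the latest cluster, which holds the noncoding Tcf3-211 and Tcf3-212, took 27.5% ± 11.3 in HC and 13.2% ± 5.19 in Ctrl (SD, n = 4), without overlap. It took 19.7% ± 9.08 in NLH, with 11.3% ± 13.6 in LH, where replicates 3 and 4 had under 0.001%.

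E47 made up 58.0% of E12 plus E47 over the 16 mice, where E12 counts every isoform with the E12 exon, the noncoding Tcf3-212 included. The HC mice had shares of 41.4%, 51.9%, 50.7% and 32.1%, the Ctrl mice 60.6%, 59.4%, 77.7% and 47.3%, the NLH mice 71.7%, 64.1%, 68.0% and 52.4%, and the LH mice 48.7%, 51.6%, 50.4% and 100%. Without Tcf3-212, an alternative added after seeing the data, the mean was 65.1%, HC replicate 2 had 83.9%, above every NLH mouse (67.1% to 75.6%), and the groups overlap. LH replicates 1 to 3 were close to each other, and LH replicate 4 had E47 alone, at the lowest Tcf3 level of all mice. Ctrl minus HC was 17.2 percentage points (exact permutation p = 0.0857, adjusted p = 0.659), and 11.97 points without Tcf3-212. LH minus Ctrl was 1.44 points with all mice, -11.1 without LH replicates 3 and 4, and -2.80 without Tcf3-212.

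The ankyrin-like exon was included in 37.5% of the FPKM of the Tcf12 isoforms that either include or skip it. The intron-retaining Tcf12-217 and the isoforms that do not reach it are left out. The HC mice had 42.3%, 34.3%, 34.4% and 61.2%, the Ctrl mice 42.0%, 38.0%, 47.9% and 37.3%, the NLH mice 43.0%, 29.6%, 30.7% and 37.9%, and the LH mice 52.2%, 46.8%, 17.8% and 4.09%. The groups overlap, and LH replicates 3 and 4 were the lowest 2 of the 16 mice. LH minus NLH was -5.09 percentage points with all mice and 14.2 without LH replicates 3 and 4. The 12-base donor of Tcf4 was the steadiest of the 3 alternative exons. The share is of the 16 isoforms that reach it, and the other Tcf4 isoforms are left out. Among these it was used in 83.3% ± 1.56 of the FPKM in HC, 81.1% ± 2.87 in Ctrl, 82.7% ± 4.42 in NLH, with 85.2% ± 2.61 in LH (SD, n = 4), and the groups overlap. The share of Tcf4 FPKM with a long frame was 25.9% ± 1.42 in HC, 24.5% ± 3.07 in Ctrl, 31.0% ± 7.11 in NLH, with 32.1% ± 5.59 in LH, with 41.1% in NLH replicate 1 as its highest value.

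**Figure D4:**
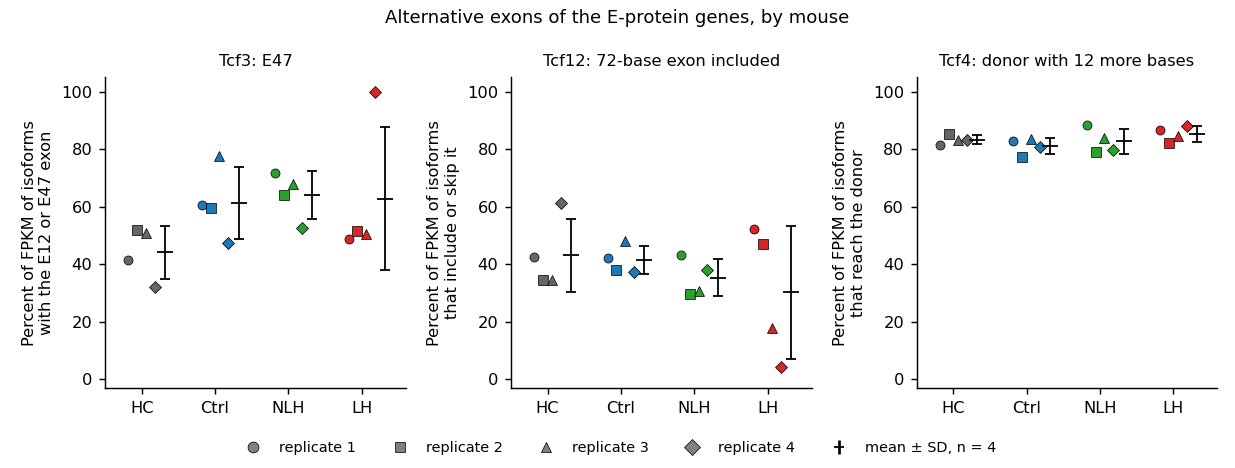
Percent E47 of E12 plus E47 in Tcf3, percent with the 72-base exon among Tcf12 isoforms that include or skip it, and percent with the 12 bases among Tcf4 isoforms that reach that donor (vertical axes, in percent of FPKM, from 0) in the 4 mice of each group, with mean and SD (n = 4). The Tcf4 share stays between 77.1% and 88.4% in all mice, while the LH mice span 4.09% to 52.2% for the Tcf12 exon.

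The partners of the E proteins were examined from lists written from general knowledge, on FPKM summed per gene and with the fit over all gene names. With all mice, no gene of any list passed after adjustment in any comparison. Without LH replicates 3 and 4, when 5.41% of all gene names passed in LH vs. Ctrl, list genes that passed there included Id4, Hdac2 and Tcf7l2 (named after their values were seen), and none passed in LH vs. NLH. The shares of all gene names at an unadjusted limma p under 0.05, against which the counts below are to be read, were 2.7% in Ctrl vs. HC, 5.59% in NLH vs. Ctrl, 11.5% for LH against Ctrl and 7.54% for LH against NLH. Of the 4 Id inhibitors, all measured above 1 FPKM, 1 was higher in NLH than in Ctrl at an unadjusted limma p under 0.05 and 2 were higher in LH, and none was lower. The median difference of the list was 0.32 in NLH vs. Ctrl and 0.27 in LH vs. Ctrl on the log2 scale, where all gene names had 0.06 and 0. Id2 stood at 10.7, 11.4, 9.40 and 9.25 FPKM in the HC mice. The Ctrl mice had 8.24, 10.0, 8.98 and 8.67, the NLH mice 16.3, 10.9, 17.6 and 11.9, and the LH mice 15.95, 12.1, 15.7 and 13.3. Both shocked groups lie above Ctrl without overlap, LH also above HC. Of all gene names, 6.12% did not overlap in NLH vs. Ctrl and 5.69% in LH vs. Ctrl. NLH vs. Ctrl was 0.63 (SE 0.15, adjusted p = 0.371 by limma) and LH vs. Ctrl 0.66 (SE 0.15, adjusted p = 0.131), and these comparisons share the Ctrl mice. Id4 had means of 8.71, 8.65, 11.2 and 11.9 FPKM in HC, Ctrl, NLH and LH, and LH vs. Ctrl was 0.43 (SE 0.17, adjusted p = 0.332 by limma). Its LH mice had 15.47, 12.0, 11.8 and 8.44, and without replicates 3 and 4 the difference was 0.65 (SE 0.16, adjusted p = 0.0394 by limma). Id1 and Id3, at means of 3.10 and 1.74 FPKM, had unadjusted limma p of at least 0.221 with all mice. All 4 inhibitors were, without LH replicates 3 and 4, higher in LH than in Ctrl at an unadjusted limma p under 0.05, where 24.3% of all gene names passed, and the median of the list was 0.53.

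Of 36 tissue-specific bHLH partners, 19 were in the table and 4 had a mean of at least 1 FPKM: Neurod6 (27.1), Neurod2 (8.14), Neurod1 (2.63) and the oligodendrocyte factor Olig2 (1.57). In LH vs. Ctrl 2 partners were higher and 2 lower at an unadjusted limma p under 0.05, in NLH vs. Ctrl 1 was lower, in LH vs. NLH 1 was higher and in Ctrl vs. HC none. Neurod1, which drives neuronal differentiation and survival in the dentate gyrus, had 1.97, 2.22, 1.90 and 2.34 FPKM in the HC mice. The Ctrl mice had 2.421, 2.34, 2.85 and 2.43, the NLH mice 2.93, 2.25, 2.62 and 2.34, and the LH mice 3.73, 3.19, 3.14 and 3.40. All 4 LH mice were above the other 12, and LH vs. NLH was 0.40 (SE 0.13, adjusted p = 0.470 by limma). Neurod6, a factor of pyramidal neurons, had means of 24.6 FPKM in Ctrl and 31.0 in LH (0.33, SE 0.12, adjusted p = 0.290 by limma). The dentate gyrus markers Prox1, Dsp, C1ql2 and Calb1 summed to 22.4 to 35.9 FPKM in LH and 22.9 to 36.1 in NLH, and their part in the Neurod1 values was not tested.

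Of 17 coregulators, 16 were measured, all above 1 FPKM. At an unadjusted limma p under 0.05, 2 were higher in NLH than in Ctrl, 1 was higher in LH than in Ctrl, 1 was higher in LH than in NLH, and none was lower. The histone acetyltransferase Crebbp had 7.30 FPKM in Ctrl and 9.53 in NLH (0.38, SE 0.14, adjusted p = 0.712 by limma), and the NuRD remodeler Chd4 had 12.6 and 15.6 (0.31, SE 0.13, adjusted p = 0.781 by limma). Kat2b had 3.46 in NLH, with 6.27 in LH, with 12.9 FPKM in LH replicate 4 alone. The histone deacetylase Hdac2 had 19.7, 22.4, 14.9 and 14.0 FPKM in the LH mice and 13.2 to 15.4 in Ctrl, and without LH replicates 3 and 4 the difference was 0.55 (SE 0.10, adjusted p = 0.0221 by limma). Of 11 genes linked to Tcf4 in neurons, 10 were measured, of which 1 was higher in NLH than in Ctrl, and 1 higher and 1 lower in LH than in Ctrl, at the same limit. Mef2c, an activity-dependent transcription factor, had 30.0 in Ctrl and 44.5 in LH (0.54, SE 0.15, adjusted p = 0.172 by limma), where LH replicate 2 at 30.7 lay within Ctrl. Without LH replicates 3 and 4 the difference was 0.32 (adjusted p = 0.220 by limma). Camk2a, a kinase of excitatory synapses, had 278 in Ctrl and 234 in LH (-0.27, SE 0.12, adjusted p = 0.411 by limma). Its LH mice had 248, 294, 209 and 185 FPKM, so the lower values are those of replicates 3 and 4, and without them the difference was -0.04. The 4 HMG-box namesakes were all in the table. Tcf7l2 had a mean of 1.203 FPKM, far under Tcf4, and 0.927 in Ctrl and 1.72 in LH (0.63, SE 0.32, adjusted p = 0.479 by limma). Its LH mice had 3.59, 1.37, 0.850 and 1.053 FPKM, so replicate 1 alone stood high, and without replicates 3 and 4 the difference was 1.21 (SE 0.31, adjusted p = 0.0406 by limma). Tcf7l1, at 0.314 FPKM, was the only one at an unadjusted limma p under 0.05 with all mice, in both LH comparisons (adjusted p = 0.277 and 0.638). Tcf7l1, Tcf7l2 and Lef1 were under it in both without LH replicates 3 and 4, where 24.3% of all gene names passed for LH against Ctrl and 15.3% for LH against NLH.

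Likeness of pattern was measured as Pearson's r of log2(FPKM + 0.1) over the 16 mice, across 10436 gene names with a mean of at least 1 FPKM, as a description, since all points share their libraries. The genes most like Tcf4 were Cdh22 (r = 0.819), Unc45a (0.782), Sdccag8 (0.766), Adgrl3 (0.765) and Mknk2 (0.761). Those most like Tcf12 were 1810037I17Rik (0.939), Nit2 (0.927), Psmc1 (0.922), Topors (0.908) and Ddr2 (0.908). Those most like Tcf3 were Cx3cr1 (0.873), Tbc1d10a (0.865), Wscd1 (0.865), Mbd6 (0.851) and Stard7 (0.850). Among the E proteins themselves r was 0.52 for Tcf12 and Tcf3, and 0.13 for Tcf4 with each of the others. Tcf12 and Tcf3 are both low in LH replicates 3 and 4.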

How the data were processed

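RNA of 16 mouse hippocampi was measured by RNA-seq. The authors deposited 1 table of FPKM per isoform, made from reads aligned to mm10. Per the labels, the processing used STAR 2.42a, StringTie 1.2.3 and Cufflinks, while the study's methods name HISAT2 as the aligner, and which of them made the table is not settled here. No read counts were used. FPKM were summed per gene name, log2(FPKM + 0.1) was fitted with limma 3.58.1 (R 4.3.3, trend and robust moderation, 4 group means, 16 mice) over 18287 gene names, 80137 transcripts and 54197 ratios of an isoform to the rest of its gene, and p-values were adjusted by Benjamini-Hochberg over each whole table. A fold change on this scale understates changes of low transcripts. The methods' test for 2 samples with equal variances was also run on FPKM, with p under 0.05 and without adjustment, and LH comparisons then left out transcripts called in Ctrl vs. HC or NLH vs. Ctrl. Shares of isoform classes were compared by exact permutation tests, 2-sided, where 4 mice against 4 cannot go below 0.0286. Structures came from GENCODE vM21 by transcript ID and version. Isoforms were named where they held at least 5% of their gene, had the smallest limma p of their gene in a comparison, passed an adjusted p of 0.05 in a fit, or were called by the methods' test in an LH comparison at a mean of at least 0.1 FPKM, and genes of the lists where their mean was at least 1 FPKM. Tcf4-201, the unmatched Tcf4 transcript, Tcf7l1 and Lef1 fall outside this rule and were chosen after their values were seen. Members and lists were chosen with earlier results of these data known. Each sample is 1 mouse. Near-identical isoforms share reads, and their split is an estimate. On simulated 4-fold changes of 200 rows in LH vs. Ctrl, with normal noise, the fit recovered 93.5% for gene sums, 75% for transcripts and 19% for ratios. The changed rows were drawn only from rows with a positive mean log2 value, for ratios isoforms above the rest of their gene. Only 16 of the 65 isoforms had a mean of at least 1 FPKM, so these rates do not cover the low isoforms. Equal replicate numbers were not taken to mark shared mice. Of 24 pairs of same-numbered mice 3 correlated above 0.1 in their deviations. These were the pairs among replicates 2 of Ctrl, NLH and LH (r = 0.138, 0.121 and 0.110), and a shared batch of these mice was not tested. Python 3.11.15, scipy 1.17.1 and Biopython 1.88 were used. Values of some genes of the lists are not reported here.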

Additional observations from a re-analysis of the deposited data

Results flagged for a closer look

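In 188 groups of 4 mice examined, 17 (9.04%) held a mouse whose gap to the nearest other exceeded Dixon's limit for 4 samples. For independent normal values chance gives about 1 in 20. In several of the groups the other 3 mice were near 0, and some classes are shares of the same sum. The share of 9.04% is therefore not to be read against chance. Among isoforms, LH replicate 1 had 1.86 FPKM of Tcf12-211 and 0.719 FPKM of Tcf3-206, with the other 3 LH mice far below. LH replicate 2 had 1.09 FPKM of Tcf3-202, 0.298 FPKM of Tcf3-212 and 0.0198 FPKM of Tcf3-201, each the highest of its group. Ctrl replicate 1 had 0.467 FPKM of Tcf3-206, the highest of the Ctrl mice. Among classes of Tcf4, Ctrl replicate 1 had 49.6% from the earliest start cluster, NLH replicate 4 had 11.8% from the cluster 250 kb on, NLH replicate 1 had 5.94% in short complete frames, and LH replicate 4 had 72.5% in isoforms with neither a long nor a short complete frame. NLH replicate 1 had 20.4% of Tcf12 from the latest cluster, the highest of its group. For Tcf3, NLH replicate 4 had 54.2% from the earliest cluster and Ctrl replicate 1 had 5.47% from the latest, both the lowest of their groups. A minor second cluster of Tcf3 had 0.000315% in HC replicate 2, 0.104% in Ctrl replicate 3 and 4.10% in LH replicate 2, each the highest of its group. LH replicate 4 had 100% E47, from the smallest Tcf3 sum of all mice. The cause of these values was not tested.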

How the results depend on the processing

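Values are log2 differences of gene sums, counts of isoforms, and percentage points of shares. Leaving out LH replicates 3 and 4, an alternative chosen after seeing the data, gave for LH against Ctrl and against NLH Tcf4 0.020 and 0.043, Tcf12 0.35 and 0.050, and Tcf3 0.10 and 0.058. It gave E47 -11.1, the Tcf12 exon 8.17 and 14.2, the long frame of Tcf12 -5.03 and of Tcf3 -5.999, with 5 isoforms by limma, 4 ratios and 10 calls of the methods' test. Isoforms of at least 1000 bases alone, also added later, gave Tcf4 0.25 in NLH vs. Ctrl and 0.19 in LH vs. Ctrl, Tcf12 0.0070 in Ctrl vs. HC and 0.025 in LH vs. Ctrl, and Tcf3 0.081 in Ctrl vs. HC and -0.0064 in NLH vs. Ctrl. Size factors gave Tcf4 0.040 and 0.11 in the LH comparisons and Tcf12 0.073 in LH vs. Ctrl, where the median gene was at 0.027 as deposited and at 0.10 with size factors, and size factors over 1 FPKM gave Tcf3 -0.011 in NLH vs. Ctrl. With 1 added, Tcf12 was 0.00076 in LH vs. Ctrl. On FPKM the Tcf12 difference was 1.78 in NLH vs. Ctrl (p = 0.00325 by the methods' test, 0.0286 by the exact permutation test) and 0.205 in LH vs. Ctrl. With a mean FPKM of at least 1, limma found 2, 1, 2 and 1 isoforms, ratios 1, 1, 2 and 2 and the methods' test 1, 1, 2 and 0 in the 4 comparisons, in the order of the report, since fewer isoforms were tested. With only the 8 mice compared, limma found 7 isoforms in NLH vs. Ctrl, 5 for LH against NLH and 6 ratios in Ctrl vs. HC. Arcsine shares gave 2 in NLH vs. Ctrl and 5 in LH vs. NLH. Adjusted, the methods' test called 0 in all 4, and on the log2 scale 1 in LH vs. NLH. E47 was -3.47 in NLH vs. Ctrl and -10.5 in LH vs. Ctrl with isoforms of at least 0.1 FPKM, -1.09 weighted by length and -1.97 from group sums, and -2.80 in LH vs. Ctrl without the noncoding Tcf3-212, added after seeing the data. Group sums gave 1.40 for the Tcf12 exon in LH vs. NLH and -0.26 for the long frame of Tcf12 in LH vs. Ctrl. Leaving out 1 mouse at a time, with changes of sign, gave ranges for gene sums of -0.074 to 0.079 (Tcf4, NLH vs. Ctrl), -0.083 to 0.012 (Tcf4, LH vs. Ctrl), -0.12 to 0.037 (Tcf4, LH vs. NLH), -0.15 to 0.12 (Tcf12, LH vs. Ctrl), -0.29 to 0.026 (Tcf3, Ctrl vs. HC) and -0.098 to 0.21 (Tcf3, NLH vs. Ctrl). For shares they were -1.83 to 8.30 (E47, NLH vs. Ctrl), -11.0 to 6.92 (E47, LH vs. Ctrl), -13.8 to 3.28 (E47, LH vs. NLH), -4.67 to 4.31 (Tcf12 exon, Ctrl vs. HC), -12.4 to 3.62 (Tcf12 exon, LH vs. NLH), -0.30 to 2.88 (Tcf4 donor, NLH vs. Ctrl), -2.25 to 0.039 (Tcf4 long frame, Ctrl vs. HC), -0.58 to 4.52 (Tcf4 long frame, LH vs. NLH), -2.66 to 5.43 (Tcf12 long frame, LH vs. Ctrl), -6.08 to 2.02 (Tcf12 long frame, LH vs. NLH) and -11.6 to 0.34 (Tcf3 long frame, NLH vs. Ctrl). Counts ran by limma from 3 to 5, 4 to 6, 5 to 10 and 6 to 9, by ratios from 1 to 3, 3 to 6, 5 to 10 and 6 to 9, and by the methods' test from 3 to 6, 4 to 8, 3 to 8 and 1 to 6. Without LH replicate 4 the ratios numbered 10 and the methods' test 8 in LH vs. Ctrl, and without NLH replicate 1 the methods' test called 6 in LH vs. NLH. Tcf4-221 and Tcf3-202 passed after adjustment only without LH replicate 2 among their alternatives. A replicate block changed no call, and Tcf12 kept 0.29 in NLH vs. Ctrl. The median r of same-numbered mice was -0.023, and the highest 3 values were those among replicates 2 of Ctrl, NLH and LH. Low FPKM of Tcf3 limits all its shares. The cause of the reversals was not tested.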
